A study of Mus musculus with 6 samples.

Results

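The genes of the cytosolic ribosomal proteins were followed in RNA-seq of γδ thymocytes. Members were the protein-coding genes whose symbol names a protein of the small subunit (*Rps*, *Rpsa*) or of the large subunit (*Rpl*, *Rplp*), and 82 of the 41195 genes in the deposited tables met this rule, 32 for the small and 50 for the large subunit. Genes that encode a ribosomal protein under another name (such as *Fau* and *Rack1*) were outside the rule and are given with the related genes. The members were measured in 3 libraries labelled *Rag1Cre-Nfatc1fl/fl* and in 3 libraries labelled *Nfatc1fl/fl*, the control. Both genotypes carry *Nfatc1* alleles whose exon 3 lies between loxP sites, and *Rag1Cre-Nfatc1fl/fl* mice also carry a Cre recombinase made from the *Rag1* locus, which is active in early lymphocytes and not in γδ cells alone. Per the methods of the study the mice were a few weeks old, matched for age and sex, and on a C57/B6 background. Cells were enriched with a magnetic TCRγ/δ kit, and libraries were made from poly(A) RNA. The comparison asks whether loss of NFATc1 in early thymocytes alters γδ thymocytes. Nothing in the labels ties the libraries to separate mice, and each p-value therefore covers only the scatter of these samples, possibly technical.

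The ribosome translates mRNA into protein. Its small subunit binds the mRNA and its large subunit joins the amino acids, and most ribosomal proteins are needed in equal amounts, so that their genes are highly and evenly expressed in growing cells. In mammals their mRNAs begin with a run of pyrimidines, the terminal oligopyrimidine (TOP) tract, through which mTOR and LARP1 control how well they are translated and how stable they are, and MYC raises their transcription. In the thymus, loss of *Rpl22* in mice stops αβ T cells and spares γδ T cells.

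Each library held 20734771 to 22638531 gene reads. *Rag1Cre-Nfatc1fl/fl* replicate 3 stood apart, the biological coefficient of variation being 0.154 with it and 0.084 without it, and results are therefore given both ways. *Nfatc1* itself had 367, 437 and 310.0 CPM (read counts scaled to the library total with edgeR's TMM factors) in the libraries labelled *Rag1Cre-Nfatc1fl/fl*, against 197, 208 and 205 CPM in the *Nfatc1fl/fl* libraries. Counts over the whole gene check neither the loss of exon 3 nor the labels. The γδ receptor gene *Trdc* was read in all 6 libraries, at 93.3 to 127 CPM in *Rag1Cre-Nfatc1fl/fl* and 194 to 206 CPM in *Nfatc1fl/fl* libraries, and was called lower in *Rag1Cre-Nfatc1fl/fl* (log2 fold change -0.80, edgeR adjusted p = 0.0035). The 5 γδ T cell markers summed to 1475 to 1676 CPM in *Rag1Cre-Nfatc1fl/fl* and 1824 to 1905 CPM in *Nfatc1fl/fl* libraries, and *Trdc* and *Tcrg-C1* (log2 fold change -0.65, edgeR adjusted p = 0.0018) were the 2 of them called lower. *Cd3g* lay the other way without passing the test (log2 fold change 0.18, edgeR adjusted p = 0.177). Markers of double-positive αβ thymocytes (7 genes such as *Cd8a* and *Rag1*) summed to 225 to 643 CPM in *Rag1Cre-Nfatc1fl/fl* and 460.1 to 469.6 CPM in *Nfatc1fl/fl* libraries, so their RNA was present in both.

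Ribosomal protein genes took a larger share of the reads in every *Rag1Cre-Nfatc1fl/fl* library than in any control library. Their reads were 12.4%, 13.3% and 17.4% of all gene reads in *Rag1Cre-Nfatc1fl/fl* replicates 1, 2 and 3, against 9.43%, 10.2% and 10.4% in the *Nfatc1fl/fl* replicates. The means were 14.4% ± 2.68 in *Rag1Cre-Nfatc1fl/fl* and 9.98% ± 0.488 in *Nfatc1fl/fl* libraries (SD, n = 3 each), a difference of 4.37 percentage points. Without *Rag1Cre-Nfatc1fl/fl* replicate 3 the mean of the other pair was 12.8%, and the difference was 2.85 points.

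Both subunits contributed. Small subunit genes held 5.48%, 5.79% and 8.00% of the reads in *Rag1Cre-Nfatc1fl/fl* libraries and 4.15%, 4.52% and 4.58% in *Nfatc1fl/fl* libraries. Large subunit genes held 6.91%, 7.49% and 9.40% in *Rag1Cre-Nfatc1fl/fl*, against 5.28%, 5.64% and 5.78% in *Nfatc1fl/fl* libraries. The ratio of large to small subunit reads was 1.26, 1.29 and 1.18 in *Rag1Cre-Nfatc1fl/fl* and 1.27, 1.25 and 1.26 in *Nfatc1fl/fl* libraries, and was lowest in replicate 3 of *Rag1Cre-Nfatc1fl/fl*. Read on the TPM scale, which counts exon reads per base, the members made up 19.7%, 21.1% and 24.6% of the transcripts in *Rag1Cre-Nfatc1fl/fl* and 14.6%, 16.5% and 16.6% in *Nfatc1fl/fl* libraries.

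**Figure D1:**
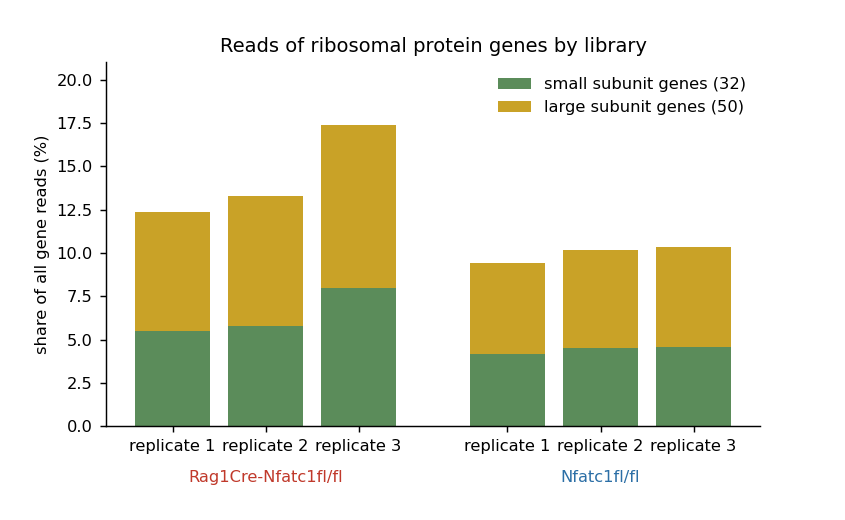
Share of all gene reads (%) that fell on small subunit genes (32, lower part of each bar) and large subunit genes (50, upper part) in each library. The 3 Rag1Cre-Nfatc1fl/fl libraries stand at 12.4%, 13.3% and 17.4%, above all 3 Nfatc1fl/fl libraries at 9.43% to 10.4%.

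Gene by gene the difference was small, in one direction and shared by nearly all members. Of the 82 members 80 had enough reads to be tested, and all 80 had a log2 fold change above 0, as had 49.3% of all tested genes. Their log2 fold changes had a median of 0.63, a 1.54-fold difference, while the median over all 13185 tested genes was -0.0069. The lowest was 0.34 (*Rps3a1*) and the highest 3.06 (*Rpl39l*), and the standard errors had a median of 0.164. The median was 0.66 for the 32 small subunit genes and 0.61 for the 48 tested large subunit genes.

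Few of these differences passed both thresholds. Genes were called, with the limits the study used, where the Benjamini-Hochberg adjusted p of the edgeR quasi-likelihood test lay below 0.01 and the log2 fold change beyond 0.5 in either direction. By this 6 of the 80 were called higher and 0 lower. Over all genes 6.47% were called higher and 3.51% lower, so the share of members called, 7.5%, was near the background. None of the 80 had an unadjusted edgeR p under 0.05 in the lower direction, and DESeq2 called 0 lower too. At an edgeR adjusted p under 0.05 with no limit on the fold, 63 of the 80 were higher, against 13.2% of all tested genes. With DESeq2 at the study's thresholds 58 were higher, 25 of the small and 33 of the large subunit, against 8.57% of all genes to which it gave an adjusted p. Leaving out replicate 2 of *Rag1Cre-Nfatc1fl/fl* or any 1 control library ended all 6 calls.

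The separation of the libraries did not depend on a threshold. In 79 of the 80 tested members the lowest *Rag1Cre-Nfatc1fl/fl* library lay above the highest *Nfatc1fl/fl* library, which was so in 23.3% of all tested genes. This held for 32 of 32 small subunit genes and for 47 of 48 large subunit genes, the exception being *Rplp0*. Without *Rag1Cre-Nfatc1fl/fl* replicate 3 the count was again 79, against 30.3% of all tested genes.

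**Figure D2:**
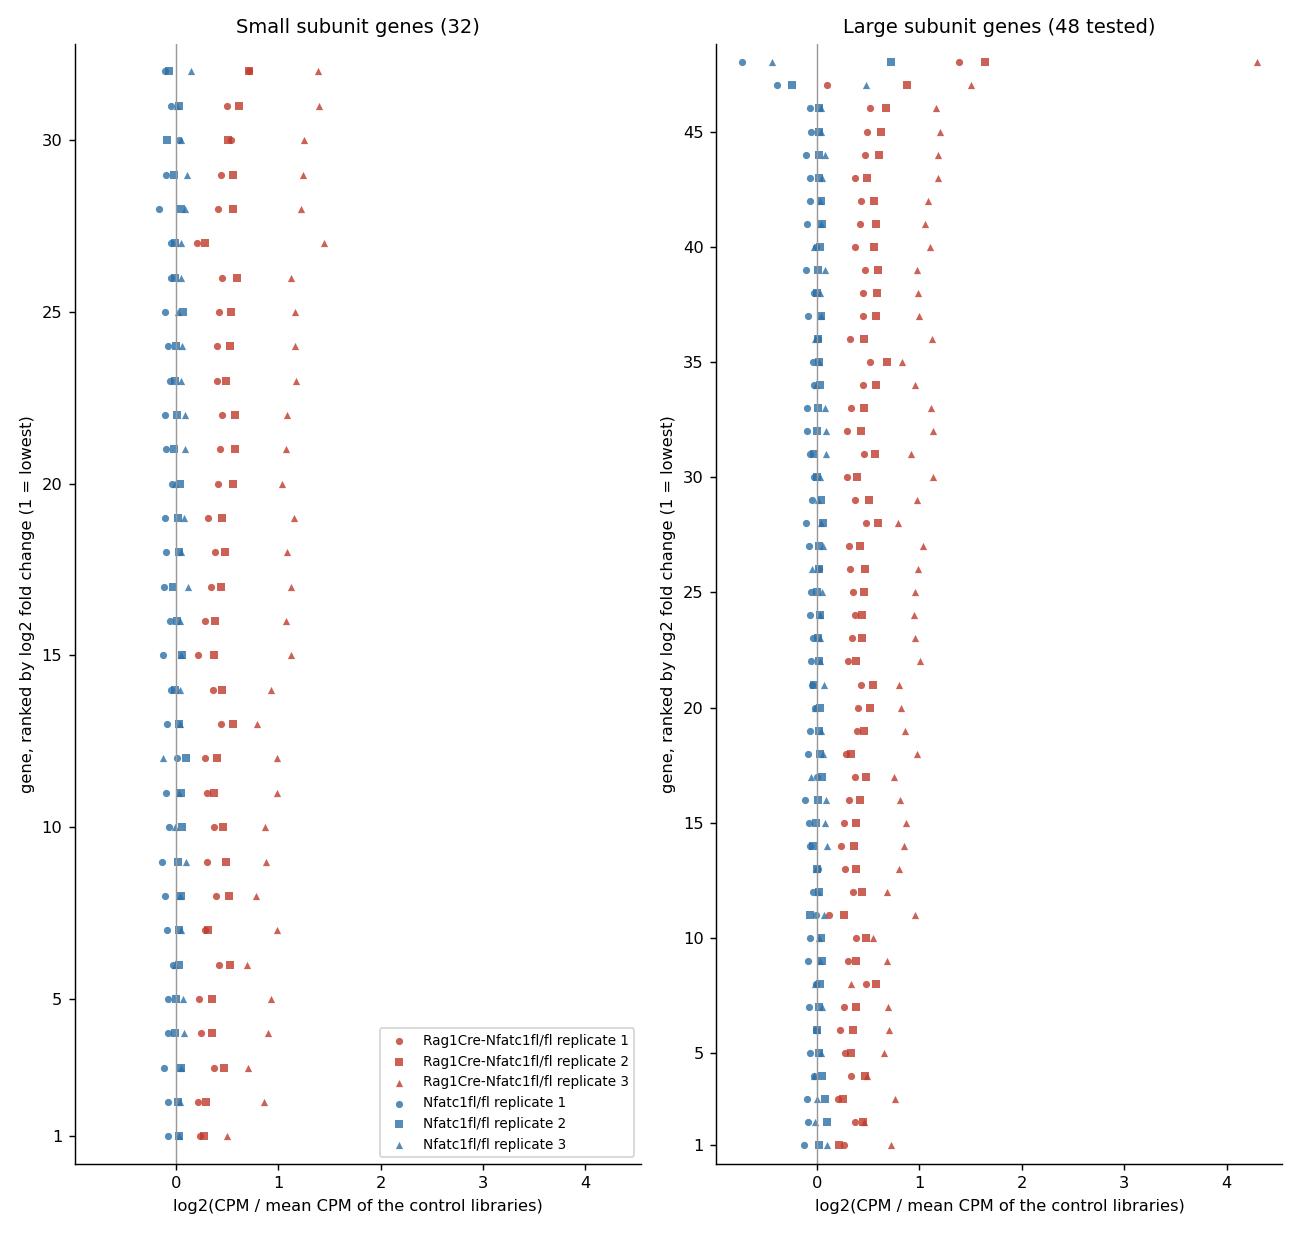
Each of the 80 tested ribosomal protein genes by library, as log2 of its CPM over the mean CPM of the 3 Nfatc1fl/fl libraries, ranked on the vertical axis by log2 fold change, with small subunit genes left and large subunit genes right. Red points (Rag1Cre-Nfatc1fl/fl; circle, square and triangle for replicates 1, 2 and 3) lie right of the blue points (Nfatc1fl/fl) in 79 genes, and the red triangle of replicate 3 lies farthest right in 79, all but Rpl4.

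The 3 libraries of *Rag1Cre-Nfatc1fl/fl* differed from the control to unlike extents. Taken over the 80 members, the median CPM relative to the mean of the controls was 1.29-fold in *Rag1Cre-Nfatc1fl/fl* replicate 1, 1.39-fold in replicate 2 and 1.97-fold in replicate 3, while the control libraries lay at 0.953, 1.01 and 1.03. Replicate 3 was the highest library for 79 members. It stood at 0.873 times (*Rpl4*) to 6.85 times (*Rpl39l*) the mean of replicates 1 and 2, with a median of 1.48. Replicates 1 and 2 lay close together, with a median ratio of 1.08, and 78 members were higher in replicate 2. The widest gap between that pair was that of *Rplp0*, at 1.72 times. *Rps14*, named here after its values were seen, had the widest gap of replicate 3 after *Rpl39l*: it had 2225, 2347 and 5258 CPM in *Rag1Cre-Nfatc1fl/fl* and 1859, 1916 and 1993 CPM in *Nfatc1fl/fl* libraries. The difference in log2 terms was 0.77 (SE 0.309, edgeR adjusted p = 0.111) and 0.26 without that library. *Rpl4*, also named for its values, had 2782, 2977 and 2512 CPM in *Rag1Cre-Nfatc1fl/fl* and 1982, 2037 and 1977 CPM in *Nfatc1fl/fl* libraries (log2 fold change 0.46, SE 0.0979, edgeR adjusted p = 0.0128). For this member alone replicate 3 was below the mean of replicates 1 and 2, and its groups did not overlap.

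Leaving out *Rag1Cre-Nfatc1fl/fl* replicate 3 made the difference smaller and its spread smaller still. The median log2 fold change of the 80 members was then 0.43, a 1.35-fold difference, and the lowest was 0.20. The median standard error was 0.0645, against 0.164 with all libraries. In that fit 21 members were called higher, 8 of the small and 13 of the large subunit, and 0 lower, against 8.42% of all tested genes called higher. At an edgeR adjusted p under 0.05 with no limit on the fold 79 of the 80 were higher, against 19.4% of all tested genes. *Rplp0* was again the exception (edgeR adjusted p = 0.144).

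**Figure D3:**
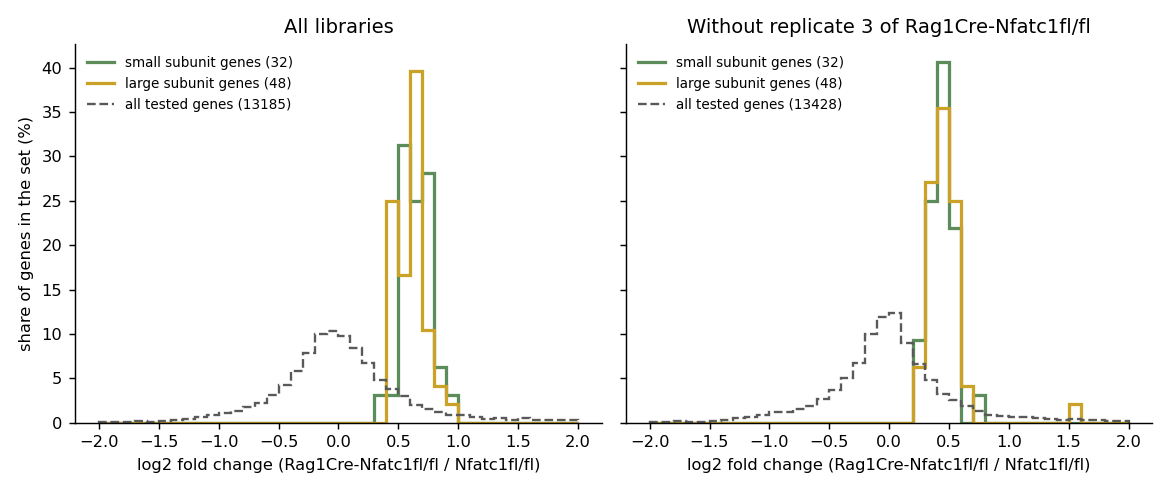
Distribution of log2 fold changes (Rag1Cre-Nfatc1fl/fl over Nfatc1fl/fl) in bins of 0.1 as a share of each set (%), with all 6 libraries (left) and without replicate 3 of Rag1Cre-Nfatc1fl/fl (right). Both subunits form 1 narrow peak, at a median of 0.63 left and 0.43 right, beside the broad distribution of all tested genes around 0; Rpl39l, at 3.06, lies outside the left panel.

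The promoter starts of the members were searched for short sequence features, and no feature stood in all of them. RefSeq (GRCm38.p6) gave a start for 62 of the 82 members, 74 starts in all. Around the start, 30 bases on each side, the following windows belong to 3 called genes (*Rps12*, *Rps6*, *Rpl14*), to *Rps18* and *Rpl12*, which are among the highest log2 fold changes, and to *Rps3a1* and *Rpl10*, which have the lowest. The windows are a hand-picked part of the called, highest and lowest members, and do not show how often a run goes with a fold change. They are shown because the pyrimidine run is the feature by which mTOR and LARP1 act on these mRNAs; capitals mark the longest unbroken run of C and T of at least 7 bases, and the annotated start is base 31 of each line.
Rps12: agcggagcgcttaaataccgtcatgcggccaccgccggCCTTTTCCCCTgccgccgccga
Rps6: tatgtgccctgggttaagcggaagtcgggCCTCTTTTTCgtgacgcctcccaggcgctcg
Rps18: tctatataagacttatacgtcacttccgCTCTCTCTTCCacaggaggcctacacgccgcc
Rpl14: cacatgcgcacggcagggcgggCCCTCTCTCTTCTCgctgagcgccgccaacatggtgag
Rpl12: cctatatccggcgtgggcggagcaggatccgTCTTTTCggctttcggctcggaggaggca
Rps3a1: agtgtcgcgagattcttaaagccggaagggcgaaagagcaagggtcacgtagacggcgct
Rpl10: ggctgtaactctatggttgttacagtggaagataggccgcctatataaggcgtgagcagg
The windows lie on GRCm38 at chr10:23787180-23787239 (minus strand, *Rps12*), chr4:86857338-86857397 (minus, *Rps6*), chr17:33955636-33955695 (minus, *Rps18*), chr9:120571487-120571546 (plus, *Rpl14*), chr2:32961682-32961741 (plus, *Rpl12*), chr3:86142639-86142698 (minus, *Rps3a1*) and chrX:74270786-74270845 (plus, *Rpl10*). The first 5 hold a run of 7 to 14 pyrimidines on the strand of the gene, at or close to the start. *Rps3a1* and *Rpl10* hold none in this window, which says only that the letters are not near the annotated start.

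Such a run of at least 7 stood in 44 of the 74 member starts (59.5%) and in 33.8% of all 32851 starts in the same 60 bases. The sequence CTTCCG, read on both strands over the 300 bases from 250 before to 50 after the start, stood in 46 of the 74 (62.2%) and in 16.9% of all. TATAAA, on both strands and in the same window, stood in 6 of the 74 (8.11%) and in 13.6% of all. Members with and without the run had similar medians. The 41 tested members with a run had a median log2 fold change of 0.63 and the 19 without had 0.64, or 0.47 and 0.41 without *Rag1Cre-Nfatc1fl/fl* replicate 3. With all libraries the values ran from 0.44 to 3.06 with a run and from 0.34 to 0.78 without. Whether the ranges differ was not tested.

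Among small subunit genes, *Rps6* and *Rps12* were 2 of the 3 called higher. *Rps6* (ENSMUSG00000028495, GRCm38 chromosome 4, 86854660 to 86857412, minus strand) encodes the protein that S6 kinases phosphorylate downstream of mTOR. It had 2758, 2975 and 3508 CPM in *Rag1Cre-Nfatc1fl/fl* libraries, against 1916, 2077 and 2079 CPM in *Nfatc1fl/fl* libraries, which gives a log2 fold change of 0.61 with an SE of 0.115 (edgeR adjusted p = 0.0083). Its groups did not overlap, and without *Rag1Cre-Nfatc1fl/fl* replicate 3 the difference was still 1.43-fold (edgeR adjusted p = 0.00045).

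*Rps12* (ENSMUSG00000061983, chromosome 10, 23785183 to 23787275, minus strand), known in the fruit fly for its part in cell competition, had the highest log2 fold change of the small subunit genes. It had 56.5, 56.7 and 90.3 CPM in *Rag1Cre-Nfatc1fl/fl* and 32.2, 33.0 and 38.4 CPM in *Nfatc1fl/fl* libraries (log2 fold change 0.97, SE 0.191, edgeR adjusted p = 0.0095). These are 1232, 1245 and 1711 reads in *Rag1Cre-Nfatc1fl/fl* against 747, 750 and 862 in *Nfatc1fl/fl* libraries, few for a ribosomal protein gene, and 28.6% of them were unique. The copy *Rps12-ps3* held more reads than the gene. With both summed there were 1718, 1950 and 3001 CPM in *Rag1Cre-Nfatc1fl/fl*, against 1093, 1181 and 1238 CPM in *Nfatc1fl/fl* libraries, and the log2 fold change was 0.93 (edgeR adjusted p = 0.0141), no longer past the threshold.

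The other small subunit genes at the upper end were *Rps18* and *Rps21*. *Rps18* had 1951, 2110.0 and 3615 CPM in *Rag1Cre-Nfatc1fl/fl* and 1335, 1403 and 1384 CPM in *Nfatc1fl/fl* libraries (log2 fold change 0.90, SE 0.222, edgeR adjusted p = 0.0237). Its value without replicate 3 was 0.57, and reads of *Vps52*, which overlaps it on the other strand, came to 5.25% of its own. *Rps21* had 808, 793 and 1322 CPM in *Rag1Cre-Nfatc1fl/fl* against 567, 525 and 575 CPM in *Nfatc1fl/fl* libraries (log2 fold change 0.81, SE 0.196, edgeR adjusted p = 0.0216). Replicate 3 stood at 1.78 times the mean of replicates 1 and 2 for *Rps18* and at 1.65 times for *Rps21*, and neither gene's groups overlapped.

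At the lower end, *Rps3a1* had the smallest difference of all members. It had 2585, 2667 and 3103 CPM in *Rag1Cre-Nfatc1fl/fl*, against 2092, 2243 and 2254 CPM in *Nfatc1fl/fl* libraries (log2 fold change 0.34, SE 0.105, edgeR adjusted p = 0.0498). The gene is one of the most abundant members per length, at 6815 ± 157 TPM in *Rag1Cre-Nfatc1fl/fl* and 6011 ± 423 TPM in *Nfatc1fl/fl* libraries (SD, n = 3 each).

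Among large subunit genes, *Rpl3*, *Rpl14* and *Rpl23a* were called higher. *Rpl14* (ENSMUSG00000025794, chromosome 9, 120571444 to 120574654, plus strand) had the lowest adjusted p of all members. It had 1189, 1337 and 1480.0 CPM in *Rag1Cre-Nfatc1fl/fl* libraries and 812, 842 and 842 CPM in *Nfatc1fl/fl* libraries (log2 fold change 0.68, SE 0.103, edgeR adjusted p = 0.0032), and the log2 fold change was 0.61 without *Rag1Cre-Nfatc1fl/fl* replicate 3. Its lowest *Rag1Cre-Nfatc1fl/fl* value lay well above the highest *Nfatc1fl/fl* value.

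*Rpl23a* (ENSMUSG00000058546, chromosome 11, 78180932 to 78183584, minus strand), whose protein sits at the exit of the tunnel through which the new protein leaves, had 1666, 1808 and 2061 CPM in *Rag1Cre-Nfatc1fl/fl*, against 1109, 1243 and 1223 CPM in *Nfatc1fl/fl* libraries. The log2 fold change was 0.63 (SE 0.109, edgeR adjusted p = 0.0057). *Rpl3* (ENSMUSG00000060036, chromosome 15, 80077791 to 80091868, minus strand), whose protein reaches to the site of peptide bond formation, had 2540, 2753 and 3299 CPM in *Rag1Cre-Nfatc1fl/fl*, against 1826, 1852 and 1988 CPM in *Nfatc1fl/fl* libraries. Its log2 fold change was 0.60 with an edgeR adjusted p of 0.0099, at the very edge of the threshold. Without *Rag1Cre-Nfatc1fl/fl* replicate 3 *Rpl3* lay just under the fold limit (log2 fold change 0.498).

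**Figure D4:**
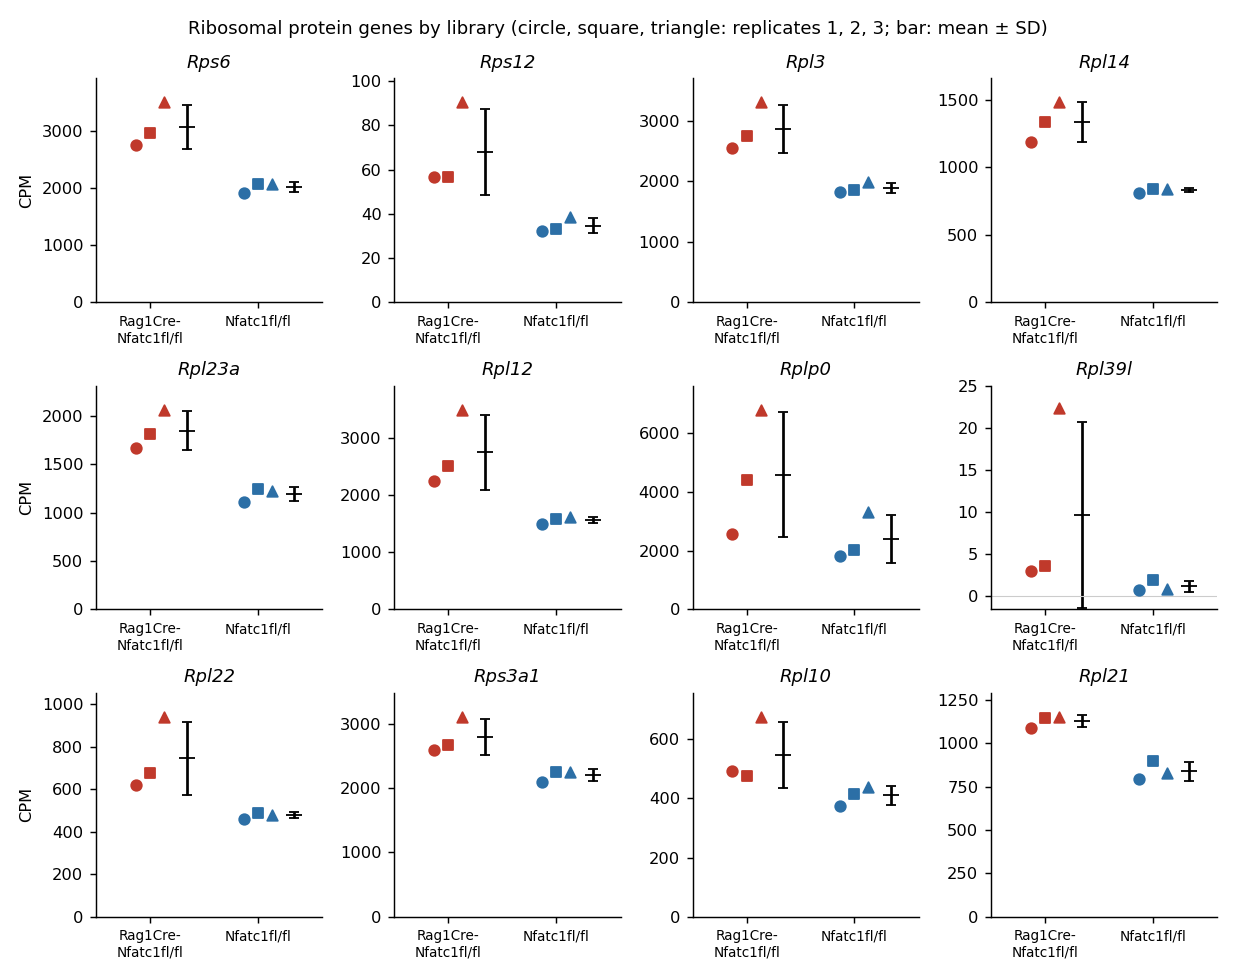
CPM of 12 ribosomal protein genes in each library (circle, square and triangle for replicates 1, 2 and 3) with mean and SD per genotype, Rag1Cre-Nfatc1fl/fl left and Nfatc1fl/fl right. In 5 of the called genes (Rps6, Rps12, Rpl3, Rpl14, Rpl23a) the genotypes are apart, in Rplp0 they overlap, and in Rpl39l the high mean comes from replicate 3, at 22.4 CPM.

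The stalk of the large subunit, which recruits the elongation factors, is built from the products of *Rplp0*, *Rplp1* and *Rplp2* on a base that includes the *Rpl12* product. *Rplp0* had 2567, 4405 and 6806 CPM in *Rag1Cre-Nfatc1fl/fl* libraries and 1824, 2025 and 3332 CPM in *Nfatc1fl/fl* libraries. It was the one member whose groups overlapped and its controls spread widely too (SD 819 CPM), and its log2 fold change of 0.94 had an SE of 0.359 (edgeR adjusted p = 0.0959). *Rplp1*, the most abundant member per length, had 12211, 13090 and 17573 TPM in *Rag1Cre-Nfatc1fl/fl*, against 9274, 10480 and 10977 TPM in *Nfatc1fl/fl* libraries (log2 fold change in CPM 0.67, SE 0.212, edgeR adjusted p = 0.0555).

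*Rpl12* had 2248, 2510 and 3498 CPM in *Rag1Cre-Nfatc1fl/fl* against 1501, 1589 and 1611 CPM in *Nfatc1fl/fl* libraries. Its log2 fold change of 0.81 (SE 0.164) missed the call at an edgeR adjusted p of 0.0106, and it was 0.61 without *Rag1Cre-Nfatc1fl/fl* replicate 3 (edgeR adjusted p = 0.0002). The difference was thus larger than the spread of the replicates in that smaller set.

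The lowest differences of the large subunit were those of *Rpl10*, *Rpl21*, *Rpl24*, *Rpl29* and *Rpl36al*, with log2 fold changes of 0.42 to 0.43. *Rpl10*, which joins the subunit late in its assembly, had 493, 475 and 676 CPM in *Rag1Cre-Nfatc1fl/fl*, against 376, 417 and 438 CPM in *Nfatc1fl/fl* libraries (log2 fold change 0.42, SE 0.146, edgeR adjusted p = 0.0752). Only 4.95% of its reads were unique, and summed with the copy *Rpl10-ps3* it had 1729, 1833 and 2526 CPM in *Rag1Cre-Nfatc1fl/fl* against 1387, 1534 and 1616 CPM in *Nfatc1fl/fl* libraries. *Rpl21* had 1085, 1145 and 1151 CPM in *Rag1Cre-Nfatc1fl/fl* against 791, 898 and 828 CPM in *Nfatc1fl/fl* libraries (log2 fold change 0.43, SE 0.0893, edgeR adjusted p = 0.0125), and *Rag1Cre-Nfatc1fl/fl* replicate 3 was not set apart here.

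*Rpl29* had 884, 972 and 983 CPM in *Rag1Cre-Nfatc1fl/fl* against 690, 726 and 690.4 CPM in *Nfatc1fl/fl* libraries (log2 fold change 0.43, SE 0.0866, edgeR adjusted p = 0.0105), with 58.0% of its reads unique. *Rpl24*, whose mutation in mice gives the Belly spot and tail phenotype, had 827, 861 and 1076 CPM in *Rag1Cre-Nfatc1fl/fl* against 652, 691 and 702 CPM in *Nfatc1fl/fl* libraries (log2 fold change 0.43, SE 0.117, edgeR adjusted p = 0.0327). A low difference was thus found both in genes where replicate 3 was close to its fellows (*Rpl21*, *Rpl29*) and in genes where it was not (*Rpl10*, *Rpl36al*).

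Several members have a paralogue in the genome, often one used in few tissues. *Rpl39l*, known in mice from male germ cells, was read at 65, 78 and 424 reads in *Rag1Cre-Nfatc1fl/fl* and 16, 43 and 19 reads in *Nfatc1fl/fl* libraries, that is 2.98, 3.55 and 22.4 CPM in *Rag1Cre-Nfatc1fl/fl* against 0.689, 1.89 and 0.846 CPM in *Nfatc1fl/fl* libraries. Its log2 fold change of 3.06 had an SE of 0.856 (edgeR adjusted p = 0.0366) and was 1.53 without *Rag1Cre-Nfatc1fl/fl* replicate 3 (edgeR adjusted p = 0.0174). This is the widest gap of replicate 3 from its fellows among the members, in the member with the fewest reads of those tested. Its widely expressed counterpart *Rpl39*, a protein of the exit tunnel, had 764, 825 and 1259 CPM in *Rag1Cre-Nfatc1fl/fl* against 581, 622 and 639 CPM in *Nfatc1fl/fl* libraries (log2 fold change 0.63, SE 0.183, edgeR adjusted p = 0.0423).

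*Rps27l*, which p53 is known to induce, had 97.5, 99.1 and 159 CPM in *Rag1Cre-Nfatc1fl/fl* and 75.3, 81.6 and 82.7 CPM in *Nfatc1fl/fl* libraries (log2 fold change 0.57, SE 0.187, edgeR adjusted p = 0.0621). *Rps27* had 891, 967 and 1491 CPM in *Rag1Cre-Nfatc1fl/fl* against 619, 699.5 and 677 CPM in *Nfatc1fl/fl* libraries (log2 fold change 0.75, SE 0.189, edgeR adjusted p = 0.0259), with 1.24% of its reads unique. Neither was called, and both had groups that did not overlap.

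*Rpl36a* had 582, 607 and 804 CPM in *Rag1Cre-Nfatc1fl/fl* and 423, 449 and 456 CPM in *Nfatc1fl/fl* libraries (log2 fold change 0.59, SE 0.132, edgeR adjusted p = 0.0167). Its retrogene *Rpl36al* had 363, 376 and 534 CPM in *Rag1Cre-Nfatc1fl/fl* against 296, 334 and 316 CPM in *Nfatc1fl/fl* libraries (log2 fold change 0.43, SE 0.153, edgeR adjusted p = 0.0801). *Rps4x*, the X-linked gene, had 2400.1, 2569 and 3015 CPM in *Rag1Cre-Nfatc1fl/fl* against 1708, 1917 and 1918 CPM in *Nfatc1fl/fl* libraries (log2 fold change 0.53, SE 0.116, edgeR adjusted p = 0.015). None of these was called, and in all of them the libraries of the genotypes did not overlap. *Rpl3l*, known from heart and skeletal muscle, had 3, 0 and 2 reads in *Rag1Cre-Nfatc1fl/fl* against 4, 11 and 2 reads in *Nfatc1fl/fl* libraries and could not be tested. *Rpl10l*, known from male germ cells, had 0 reads in all 6 libraries.

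*Rpl22* is the member with a known tie to the γδ lineage. *Rpl22* (ENSMUSG00000028936, chromosome 4, 152325742 to 152334071, plus strand) had 617, 678 and 939 CPM in *Rag1Cre-Nfatc1fl/fl* and 461, 489 and 479 CPM in *Nfatc1fl/fl* libraries. Its log2 fold change was 0.64 (SE 0.155, edgeR adjusted p = 0.021), near the median of the members, and 0.45 without *Rag1Cre-Nfatc1fl/fl* replicate 3 (edgeR adjusted p = 0.00058). The paralogue *Rpl22l1*, outside the rule and held down by the *Rpl22* protein in mice, had 185, 199.9 and 273 CPM in *Rag1Cre-Nfatc1fl/fl* against 153, 153 and 177 CPM in *Nfatc1fl/fl* libraries (log2 fold change 0.45, SE 0.153, edgeR adjusted p = 0.0717). Both genes of the pair were thus higher in each *Rag1Cre-Nfatc1fl/fl* library than in any control library, without passing the threshold.

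*Rpl5* and *Rpl11* form, with 5S rRNA, the particle that holds back Mdm2 when ribosome assembly fails. *Rpl5* had 2079, 2201 and 2606 CPM in *Rag1Cre-Nfatc1fl/fl* and 1585, 1651 and 1634 CPM in *Nfatc1fl/fl* libraries (log2 fold change 0.50, SE 0.109, edgeR adjusted p = 0.0146). *Rpl11* had 1474, 1587 and 2122 CPM in *Rag1Cre-Nfatc1fl/fl* against 1229, 1217 and 1208 CPM in *Nfatc1fl/fl* libraries (log2 fold change 0.50, SE 0.141, edgeR adjusted p = 0.0369). Both lay a little below the median of the members.

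In genes with annotated exons, intron reads come mostly from RNA not yet spliced, and they gave a thinner readout of the members. For *Trdc*, *Tcrg-C1* and *Tcrg-C2*, which have no annotated exon bases here, every read was counted as an intron read. The members had 1749, 2064 and 2188 intron reads in *Rag1Cre-Nfatc1fl/fl* libraries, against 1653, 1689 and 1516 in *Nfatc1fl/fl* libraries. This is 0.381%, 0.428% and 0.545% of all intron reads in *Rag1Cre-Nfatc1fl/fl* against 0.289%, 0.332% and 0.292% in *Nfatc1fl/fl* libraries. Of 45 members with enough intron reads, 41 had a log2 fold change above 0, with a median of 0.54 (0.0027 over all 6158 genes tested on intron reads). 1 of the 45, *Rpl32*, was called higher and 0 lower by edgeR on intron reads, against 2.76% of all tested genes called higher. A single member had an unadjusted edgeR p under 0.05 in the lower direction. These reads are few, 5 genes held 43.6% of them, and the called gene was lost without *Rag1Cre-Nfatc1fl/fl* replicate 3 or any 1 control library.

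*Rpl32* had 166, 153 and 207 intron reads in *Rag1Cre-Nfatc1fl/fl* and 92, 101 and 113 in *Nfatc1fl/fl* libraries (log2 fold change 1.01, SE 0.216, edgeR adjusted p = 0.0053). *Cand2*, which overlaps *Rpl32* on the other strand, had a mean of 1103 gene reads per library. Its part in these intron reads was not tested, and the kit does not mark strand. *Rplp1* had 257, 293 and 439 in *Rag1Cre-Nfatc1fl/fl* against 217, 255 and 198 in *Nfatc1fl/fl* libraries (log2 fold change 0.80, SE 0.244, edgeR adjusted p = 0.0559). *Rpl32* was named here after its values were seen. In total reads it had 1969, 2168 and 3224 CPM in *Rag1Cre-Nfatc1fl/fl* and 1344, 1422 and 1438 CPM in *Nfatc1fl/fl* libraries (log2 fold change 0.81, SE 0.180, edgeR adjusted p = 0.0161).

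Lists of genes that build, load and regulate ribosomes had median log2 fold changes of 0.030 to 0.51, and none held a gene called lower with all 6 libraries. The fusion genes and paralogues outside the rule, 5 of 5 tested, had a median log2 fold change of 0.45, 0 calls, and no overlap between the genotypes in all 5, against 6.47% called higher and 23.3% higher without overlap over all tested genes. *Rack1*, a scaffold on the small subunit, had 2693, 2842 and 4825 CPM in *Rag1Cre-Nfatc1fl/fl* and 2040.0, 2230.3 and 2311 CPM in *Nfatc1fl/fl* libraries (log2 fold change 0.65, edgeR adjusted p = 0.0647). *Fau*, which encodes a small subunit protein fused to a ubiquitin-like one, had a log2 fold change of 0.52 (edgeR adjusted p = 0.0704), with 15.7% of its reads unique. All 5 lay above 0 with and without *Rag1Cre-Nfatc1fl/fl* replicate 3.

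Elongation factors and other mRNAs with a TOP tract, 19 tested, had a median log2 fold change of 0.34 with 0 calls, and 16 of them did not overlap, against the same 6.47% and 23.3% over all tested genes. *Eef1a1*, which brings the aminoacyl-tRNA, was the most abundant, at 19152, 20127 and 24380.0 CPM in *Rag1Cre-Nfatc1fl/fl* and 14101, 15192 and 15719 CPM in *Nfatc1fl/fl* libraries (log2 fold change 0.50, edgeR adjusted p = 0.0263). *Eef2*, which moves the ribosome along, had 8295, 8863 and 9270.2 CPM in *Rag1Cre-Nfatc1fl/fl* against 6555, 6978 and 7636 CPM in *Nfatc1fl/fl* libraries (log2 fold change 0.32, edgeR adjusted p = 0.0652). Of the 30 other initiation factors 0 were called, and their median was 0.12. *Eif5a* had a log2 fold change of 0.45 (edgeR adjusted p = 0.0627) and *Eif4g2* one of -0.13 (edgeR adjusted p = 0.371).

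Ribosome assembly genes, 53 tested, had a median log2 fold change of 0.27, and 2 were called higher and 0 lower, against 6.47% and 3.51% of all tested genes. *Nop10*, a protein of the RNPs that convert uridine to pseudouridine in rRNA, had 123, 134 and 155 CPM in *Rag1Cre-Nfatc1fl/fl* and 77.6, 82.4 and 79.5 CPM in *Nfatc1fl/fl* libraries (log2 fold change 0.78, edgeR adjusted p = 0.0017). *Ppan* had 32.4, 33.2 and 35.6 CPM in *Rag1Cre-Nfatc1fl/fl* against 23.4, 22.9 and 20.6 CPM in *Nfatc1fl/fl* libraries (log2 fold change 0.60, edgeR adjusted p = 0.0036). Without *Rag1Cre-Nfatc1fl/fl* replicate 3 this list had 11 members called higher, against 8.42% of all tested genes, and a median of 0.31.

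Of 14 RNA polymerase I genes, *Polr1b*, a subunit of its core, was called higher, at 49.98, 46.9 and 49.8 CPM in *Rag1Cre-Nfatc1fl/fl* against 31.0, 31.2 and 32.5 CPM in *Nfatc1fl/fl* libraries (log2 fold change 0.63, edgeR adjusted p = 0.0014). *Polr1d* had a log2 fold change of 0.41 (edgeR adjusted p = 0.0352) and *Ubtf* one of -0.28 (edgeR adjusted p = 0.416). The median of the list was 0.18. Among 25 genes of mTOR, LARP1 and MYC control, 3 were called higher and 0 lower, against 6.47% and 3.51% of all tested genes, and the median was 0.030. *Mycn*, a relative of *Myc* named here after its values were seen, had 5.51, 3.78 and 3.70 CPM in *Rag1Cre-Nfatc1fl/fl* and 7.66, 8.00 and 8.77 CPM in *Nfatc1fl/fl* libraries (log2 fold change -0.91, SE 0.193, edgeR adjusted p = 0.0132). It was called lower in the fit without *Rag1Cre-Nfatc1fl/fl* replicate 3 (log2 fold change -0.80, edgeR adjusted p = 0.0096).

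*Myc*, a transcription factor that raises ribosomal protein and rRNA genes, had 100.3, 114 and 93.8 CPM in *Rag1Cre-Nfatc1fl/fl* and 51.5, 53.8 and 47.1 CPM in *Nfatc1fl/fl* libraries (log2 fold change 1.02, SE 0.104, edgeR adjusted p = 0.00058). It was 1.09 without *Rag1Cre-Nfatc1fl/fl* replicate 3, which for this gene was the lowest of its group. *Eif4ebp1*, an inhibitor of eIF4E that mTOR inactivates, had 16.4, 17.6 and 20.3 CPM in *Rag1Cre-Nfatc1fl/fl* against 9.94, 11.5 and 9.66 CPM in *Nfatc1fl/fl* libraries (log2 fold change 0.80, edgeR adjusted p = 0.004). *Sesn2*, which restrains mTOR when leucine is scarce, had 15.9, 15.8 and 17.1 CPM in *Rag1Cre-Nfatc1fl/fl* against 9.56, 10.9 and 10.6 CPM in *Nfatc1fl/fl* libraries (log2 fold change 0.65, edgeR adjusted p = 0.005). Of these 3, MYC promotes ribosome production and the products of the other 2 restrain translation or mTOR.

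Of 12 tested snoRNA host genes, transcripts whose introns yield the guides of rRNA modification, 0 were called, and their median log2 fold change was 0.51. Over all tested genes 6.47% were called higher and 3.51% lower. *Gas5* had 129, 136 and 184 CPM in *Rag1Cre-Nfatc1fl/fl* and 98.1, 103 and 109 CPM in *Nfatc1fl/fl* libraries (log2 fold change 0.53, edgeR adjusted p = 0.03), and *Snhg8* had a log2 fold change of 0.52 (edgeR adjusted p = 0.12). The 78 mitochondrial ribosomal proteins, which make a separate ribosome, had a median of 0.21 and of 0.065 without *Rag1Cre-Nfatc1fl/fl* replicate 3. Of these 78, 1 was called higher and 0 lower, against the same 6.47% and 3.51%. The called gene was *Mrpl36* (log2 fold change 0.61, edgeR adjusted p = 0.0069), while *Mrpl9* had -0.058 (edgeR adjusted p = 0.699) and *Mrps23* 0.32 (edgeR adjusted p = 0.0786). Ribosomal protein pseudogenes, 5 tested, had a median of 0.69, but *Rps12-ps3* (log2 fold change 0.92, edgeR adjusted p = 0.0143) and *Rpl10-ps3* (0.43, edgeR adjusted p = 0.0873) were read almost only from sequence shared with their parent genes, 0.0218% and 0.115% of their reads being unique.

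**Figure D5:**
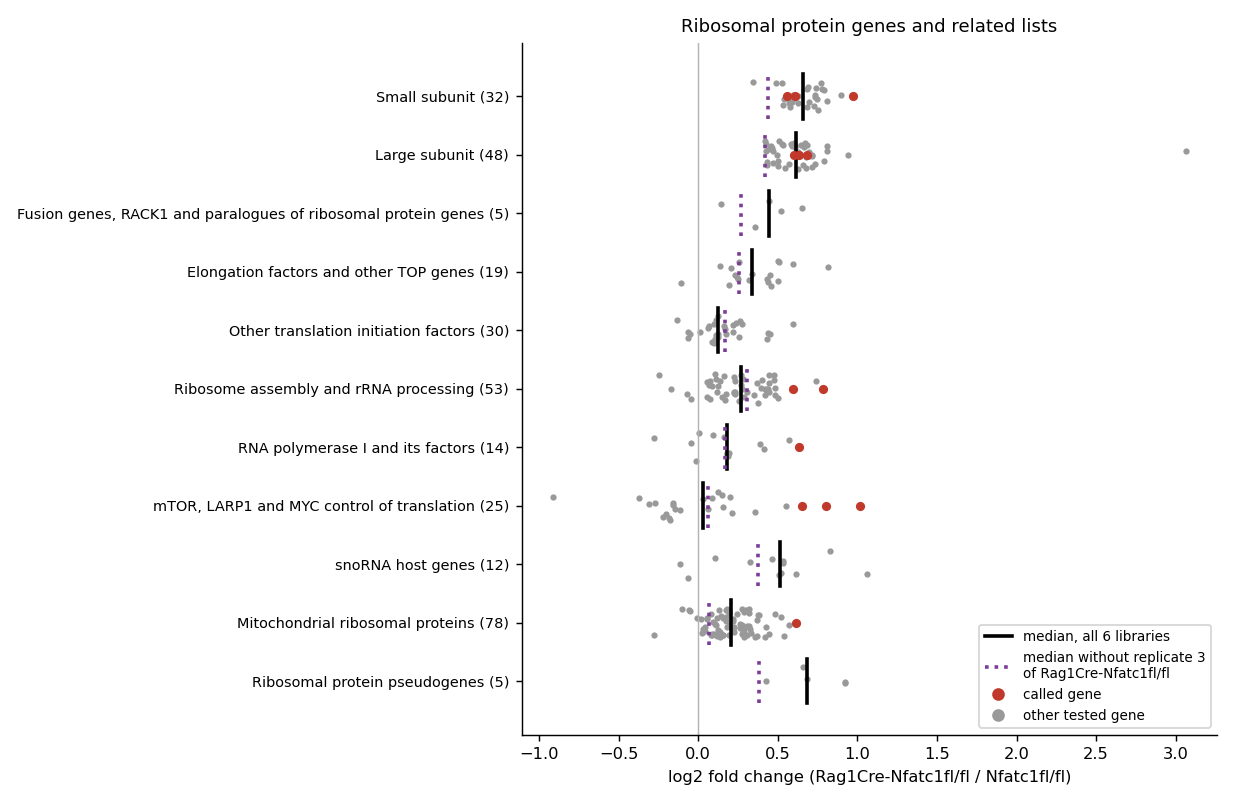
Log2 fold changes (Rag1Cre-Nfatc1fl/fl over Nfatc1fl/fl) of the ribosomal protein genes of each subunit and of 9 related lists, with the number tested in brackets, the median with all 6 libraries (solid line) and without replicate 3 of Rag1Cre-Nfatc1fl/fl (dotted line), and called genes in red. The medians of both subunits, 0.66 and 0.61, lie above those of the lists of other translation and ribosome assembly genes; only the pseudogenes, whose reads are mostly shared with the members, reach higher.

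Other features of the libraries moved with the members. The members have short transcripts, with a median merged exon length of 1736 bases against 4144 over all tested genes, and shorter genes had higher log2 fold changes across the whole table. Over 4 equal classes of all tested genes, from the shortest to the longest, the median log2 fold change was 0.16, 0.034, -0.045 and -0.14. The shortest class includes genes with a merged exon length of 0. Without *Rag1Cre-Nfatc1fl/fl* replicate 3 it was 0.062, 0.022, -0.013 and -0.039. Within the shortest class, the 57 members had a median of 0.63 with all libraries and 0.44 without replicate 3, and the 19 members in the next class had 0.61 and 0.42. With the length trend removed in each library the median of the members was 0.51, and 19 were called higher, against 7.43% of all tested genes.

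Markers of other cells and signs of RNA state differed too. Macrophage markers (7 genes) summed to 71.0, 44.7 and 224 CPM in *Rag1Cre-Nfatc1fl/fl* and 78.1, 24.3 and 16.8 CPM in *Nfatc1fl/fl* libraries, and the double-positive thymocyte markers to 407, 225 and 643 CPM in *Rag1Cre-Nfatc1fl/fl* against 461, 460.1 and 469.6 CPM in *Nfatc1fl/fl* libraries. Both sums were highest in replicate 3 of *Rag1Cre-Nfatc1fl/fl*, where the members were highest. *Dntt* was lower without overlap, at 170, 115 and 231 CPM in *Rag1Cre-Nfatc1fl/fl* against 247, 269 and 289 CPM in *Nfatc1fl/fl* libraries. It was not called with all libraries (log2 fold change -0.64, edgeR adjusted p = 0.0733). Without that replicate 3 it was called lower (-0.91, edgeR adjusted p = 0.0012). *Cd1d1* was also lower without overlap (log2 fold change -0.46). *Lyz2* was highest in a control library, and the other markers of both sums in that replicate 3. Replicate 3 of *Rag1Cre-Nfatc1fl/fl* also had the highest sums of erythroid (52.4 CPM) and dendritic cell markers (6.28 CPM) of all 6 libraries. In its dendritic sum *Itgax* had 4.07 CPM. *Flt3* (0.317 CPM) was the lowest of all 6 libraries there, *Siglech* had 0 reads, and *Xcr1* (1.90 CPM) lay below replicate 1 (2.48 CPM). The sums of γδ T cell markers (1475 CPM) and of markers of dividing cells (740 CPM) were the lowest in this replicate 3. Within them the genes did not move as one. *Top2a* (207 CPM) and *Mki67* (84.7 CPM) were lowest there, while *Cdk1* (101 CPM), *Ccnb1* (115 CPM) and *Birc5* (85.9 CPM) were highest there. *Tcrg-C1* stood at 223 CPM there, above replicates 1 and 2 of that genotype (208 and 196 CPM). In replicate 2 of *Rag1Cre-Nfatc1fl/fl*, which had the lowest sum of double-positive markers of all 6 libraries, the members had a median 1.39-fold above the control mean. Sums of erythroid markers (6 genes) ranged over 7.79 to 52.4 CPM in *Rag1Cre-Nfatc1fl/fl* and 3.96 to 28.9 CPM in *Nfatc1fl/fl* libraries. Those of dendritic cells (4) ranged over 3.19 to 6.28 CPM in *Rag1Cre-Nfatc1fl/fl* and 2.40 to 3.57 CPM in *Nfatc1fl/fl* libraries. Those of B cells (5) ranged over 14.2 to 19.2 CPM in *Rag1Cre-Nfatc1fl/fl* and 25.1 to 28.3 CPM in *Nfatc1fl/fl* libraries, and those of stroma and epithelium (6) over 12.6 to 12.8 CPM in *Rag1Cre-Nfatc1fl/fl* and 19.9 to 21.5 CPM in *Nfatc1fl/fl* libraries. In the B cell sum *Cd79b* made up 16.02, 13.8 and 18.5 CPM in *Rag1Cre-Nfatc1fl/fl* against 27.3, 27.7 and 24.3 CPM in *Nfatc1fl/fl* libraries. *Cd79b* was called lower (log2 fold change -0.72, edgeR adjusted p = 0.0065), and the other B cell markers had too few reads to be tested. *Ms4a1* had 1, 0 and 3 reads in *Rag1Cre-Nfatc1fl/fl* and 0 in all *Nfatc1fl/fl* libraries. *Cd79a* had 0, 3 and 9 reads in *Rag1Cre-Nfatc1fl/fl* against 0, 8 and 14, and *Ebf1* had 6, 6 and 1 against 6, 7 and 5. In the stroma and epithelium sum *Epcam* made up 9.04, 7.92 and 8.13 CPM in *Rag1Cre-Nfatc1fl/fl* against 19.5, 19.9 and 18.3 CPM in *Nfatc1fl/fl* libraries. *Epcam* was called lower (log2 fold change -1.20, edgeR adjusted p = 0.00034). *Col1a1* lay the other way without overlap but was not called (log2 fold change 1.28, edgeR adjusted p = 0.0355). The other stroma and epithelium markers had too few reads to be tested, and *Pdgfra* was at 0 in all 6 libraries.

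Markers of dividing cells (6 genes) summed to 740 to 1010.0 CPM in *Rag1Cre-Nfatc1fl/fl* and 995 to 1178 CPM in *Nfatc1fl/fl* libraries, and 0 of them were called. Mitochondrial genes took 6.23%, 5.75% and 6.42% of the reads in *Rag1Cre-Nfatc1fl/fl* against 10.6%, 7.41% and 7.86% in *Nfatc1fl/fl* libraries. Introns took 2.11%, 2.15% and 1.94% in *Rag1Cre-Nfatc1fl/fl* against 2.53%, 2.33% and 2.39% in *Nfatc1fl/fl* libraries. This share includes all reads of *Trdc*, *Tcrg-C1* and *Tcrg-C2*, so it is not a measure of unspliced RNA alone. The part of cell composition, of transcript length and of these shares in the difference of the ribosomal protein genes was not tested, and in bulk RNA fewer cells of a type and less RNA per cell cannot be told apart.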

How the data were processed

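Poly(A) RNA of γδ thymocytes was sequenced as single-end reads in 6 libraries. The authors' methods name cutadapt for trimming, STAR for alignment (GRCm38), featureCounts for counting and DESeq2 for the comparison. The deposited gene tables hold raw counts of total, unique, exon, exon-exon and intron reads per gene; which program wrote these tables is not stated in the sources at hand. No fold changes or p-values of the authors were used. The kit does not mark strand, so reads of overlapping antisense genes cannot be told apart, and reads of near-identical copies are uncertain.

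Total gene reads were analysed with edgeR 4.0.16 (limma 3.58.1) in R 4.3.3: TMM factors, filterByExpr, the quasi-likelihood test with genotype as the only term and Benjamini-Hochberg adjustment across every gene tested. Calls needed an adjusted p below 0.01 with a log2 fold change beyond 0.5 in either direction. CPM are scaled with TMM, and TPM were recomputed from exon reads and the merged exon length. Alternatives were other scaling factors, no filter, DESeq2 1.42.0, limma-voom, other kinds of reads, a replicate block, removal of the length trend, TPM with a pseudocount of 1 or 0.1, other thresholds, summed copies and leaving out each library. The edgeR procedure was also run on simulated counts. In these the genes were independent and had a single dispersion, with no outlying library and no length trend. They do not show how the procedure handles such features.

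The members and the lists were chosen with earlier results of these data known. Named with values were the 6 highest and 6 lowest log2 fold changes at a mean of at least 5 CPM, the 3 highest TPM, the paralogue pairs, *Rpl22*, *Rpl22l1*, *Rpl5* and *Rpl11*, and of each other list up to 4 called genes or the 2 most abundant. *Rps6*, *Rpl14*, *Rpl23a*, *Rps14*, *Rpl4*, *Rpl32* and *Mycn* were named after their values were seen. Library totals were 20734771 to 22638531 gene reads, and *Rpl39l* had the fewest reads of the tested members, 16 to 424 per library. Some genes that entered the counts and sums are not reported here by name.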

Additional observations from a re-analysis of the deposited data

How the results depend on the processing

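The number of ribosomal protein genes called depended on the processing; the share of all genes called higher stands after each count. Against 6 called higher (3 of each subunit; 6.47%), upper-quartile factors gave 3 (1 small subunit; 6.41%), library size alone 5 (1 small subunit; 5.31%), no filter 40 (19 small, 21 large; 5.0%), DESeq2 58 (25 and 33; 8.57%), unique reads 10 (7 large; 6.7%), the length trend removed 19 (6 and 13; 7.43%), TPM with either pseudocount 0 (0 and 0; 2.67% and 2.66%), and an adjusted p under 0.05 gave 53 (22 and 31; 10.2%). Leaving out 1 library gave 0 to 21 (0 to 8 small, 0 to 13 large), with 0 without replicate 2 of *Rag1Cre-Nfatc1fl/fl* (3.45%) or any control (2.82% to 3.11%), 11 without its replicate 1 (5.03%) and 21 without its replicate 3 (8.42%). With the replicate number as a block there were 19 (7 and 12; 5.9%). 0 members were called lower under any of these alternatives on total reads. Whether the numbers pair the libraries was not settled. The correlations of same-numbered deviations were 0.0258, 0.183 and 0.00547, and those of differently numbered ones ran from -0.150 to 0.0937. The biological coefficient of variation was 0.137 with the block and 0.154 without it. On intron reads, against 1 called (2.76%), unique reads (2.98%), no filter (1.39%) and the replicate block (3.39%) gave 2 each, and leaving out 1 library 0 to 2 (1.53% to 2.64%). The median log2 fold change of the members ran over 0.43 to 0.75 without 1 library and over 0.44 to 0.63 in the other settings, the library-size scaling moving the median of all genes to -0.11 and that of the members to 0.51. *Eif4g2* went to 0.040 with the length trend removed, against -0.13, and the cause was not tested. Summing each member with its copies, an alternative added after seeing the data, left 5 called (6.47%), without *Rps12*. Of the alternatives for single named genes 888 kept their side of the threshold, 95 lost it, 40 gained it and 1 changed sign. Depth limits the reading of *Rpl39l*, *Rpl3l* and the intron reads.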
